A study of Rattus norvegicus with 24 samples.

Results

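Nfkbia, Birc3 and Cd83 are 3 target genes of the transcription factor NF-κB, and their read counts were followed in microglia of neonatal rats that had breathed normal or intermittently low oxygen and then received lipopolysaccharide (LPS), a bacterial cell wall component. The genes were chosen by name, as a feedback inhibitor of NF-κB, an inhibitor of cell death and a surface protein of activated immune cells. They were matched to the count files by their Ensembl identifiers (ENSRNOG00000007390, ENSRNOG00000005731 and ENSRNOG00000018092), and all 3 were among the 12860 of 32754 genes that passed the filter on low counts. The 24 samples were CD11b/c+ cells pulled from the brains of Sprague-Dawley rat pups with OX-42 antibody beads at postnatal day 9, with the cerebellum and olfactory bulbs removed. The pups had spent 8 days either in normoxia (Nx, 21% O2) or in intermittent hypoxia (IH, cycles of 2 min at 10.5% or 21% O2 for 8 h each day, together with their dams). They were then injected intraperitoneally with vehicle or 0.1 mg/kg LPS, and the cells were taken 3 h later. With both sexes this gave 8 groups of 3 samples, which are male Nx vehicle, male IH vehicle, male Nx LPS, male IH LPS and the same 4 in females. The Nx groups are the controls for oxygen and the vehicle groups the controls for LPS, and no group carried a transgene or deletion.

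NF-κB is a family of transcription factors that is held in the cytoplasm by inhibitor proteins, of which IκBα, the product of Nfkbia, is the best studied. When LPS binds its receptor TLR4 on microglia, IκBα is phosphorylated and degraded and NF-κB enters the nucleus. Nfkbia is itself switched on by NF-κB, so that newly made IκBα ends the response. Birc3 codes for cIAP2, a ubiquitin ligase that limits cell death and takes part in signalling below TNF receptors and Toll-like receptors. Cd83 codes for an immunoglobulin-like membrane protein known as a marker of mature dendritic cells and also found on microglia.

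The DNA letters through which NF-κB is known to act are shown for the members whose promoter window was at hand. In RefSeq windows of 300 bases around gene starts (build GRCr8, 250 bases before and 50 after the start), both strands were searched for the NF-κB consensus of 10 letters. Nfkbia and Cd83 were in the table of windows and both held it, while Birc3 had no entry. The capitals mark the letters covered by matches, the flanks are in lower case, and each stretch is written along the strand of the gene.
Nfkbia, chr6:78597084-78597113, minus strand: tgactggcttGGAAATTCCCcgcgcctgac
Cd83, chr17:21112659-21112687, minus strand: cctccggctGGGGAGTCCCCggggccggc
Cd83, chr17:21112634-21112663, minus strand: ccggcgcgcgGGGAAGTCCCaagcgcgggt
The Nfkbia match lay at positions -31 to -22 from the annotated start. The first Cd83 stretch, at positions -1 to 10, was covered by 4 overlapping matches on both strands, and the second, at positions 25 to 34, was a match on both strands. Of all 33469 windows in the table, 7.51% held at least 1 match, as did 4 of the 9 windows found for 10 other NF-κB targets. A match of letters describes the sequence only, and binding was not measured here.

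The libraries held between 6624453 and 8548714 counts on genes, a narrow range, and no library pair within a group agreed closely enough to be 1 library deposited more than once. The labels call the 3 samples of a group replicates, and the study describes them as biological replicates. Values are CPM, each gene's counts as a share of the library and scaled by the trimmed mean of M-values (TMM), which serve to compare 1 gene between samples and not different genes with each other, since no gene lengths were used. In bulk samples fewer expressing cells and less RNA per cell cannot be told apart. The deposited files name genes by Ensembl identifier only, so the microglial markers could not be looked up and the labelled cell type was not checked here. Genes of other cells could be followed for 3 named cases, and all 3 were detected. Cd7, a surface protein of T and natural killer cells, ranged from 0.933 to 41.0 CPM, the mast cell protease gene Mcpt1l1 from 2.07 to 65.7 CPM, and the endothelial adhesion gene Sele was at most 0.143 CPM with vehicle and between 0.595 and 36.1 CPM with LPS.

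Among the LPS samples, male Nx LPS 2 and male IH LPS 3 stood apart from the other 10. They were the lowest 2 of the 12 for all 3 members and for 6 of 10 other NF-κB targets (Il1a, Cxcl1, Cxcl10, Ptgs2, Irf1 and Icam1). Cxcl10, an interferon- and NF-κB-driven chemokine, had 123 CPM and 23.1 CPM in them, against 440 to 3192 CPM in the other LPS samples and at most 14.1 CPM with vehicle. Both samples keep their labels here, and the LPS and IH effects in the LPS samples are also given without both of them, a choice made after their values were seen. Their cause was not tested. Cd7 was at 0.969 CPM in male Nx LPS 2 and at 25.5 CPM in male IH LPS 3.

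Without LPS, the 3 genes differed in how evenly they were expressed. Nfkbia had 106, 63.2 and 34.8 CPM in the male Nx vehicle samples and 116, 43.7 and 36.9 CPM in male IH vehicle. In females it had 32.6, 39.2 and 45.0 CPM with Nx vehicle and 32.8, 33.8 and 46.7 CPM with IH vehicle. The highest vehicle values of Nfkbia were thus those of 1 sample in each male group, and the remaining 10 samples lay below both. Over all 12 vehicle samples the highest value of Nfkbia was 3.55 times the lowest.

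Birc3 was close to the detection limit with vehicle. It had 5, 4 and 9 reads in male Nx vehicle and 9, 5 and 7 reads in male IH vehicle. In females it had 6, 5 and 10 reads with Nx vehicle and 2, 5 and 8 reads with IH vehicle. These counts correspond to 0.278 to 1.23 CPM, so the vehicle level of this inhibitor of cell death carries a large counting error in every sample.

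Cd83 was the steadiest of the 3 genes with vehicle. It had 347, 365 and 268 CPM in male Nx vehicle and 381, 315 and 353 CPM in male IH vehicle. In females the values were 349, 276 and 309 CPM with Nx vehicle and 296, 328 and 348 CPM with IH vehicle. The highest of the 12 was 1.42 times the lowest, and the 4 vehicle groups overlapped.

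**Figure D1:**
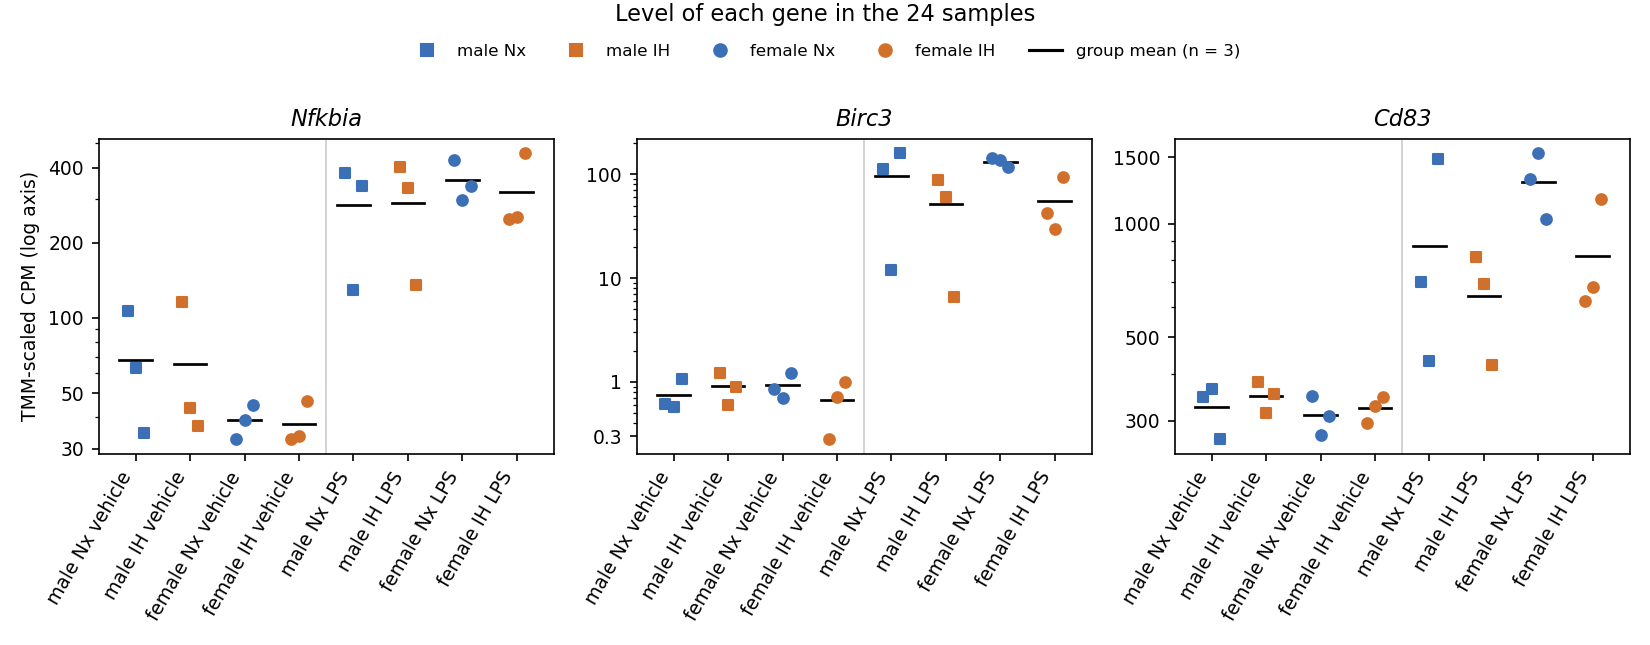
TMM-scaled CPM of Nfkbia, Birc3 and Cd83 (log axes, 1 panel per gene) in each of the 24 samples, by group. Points are samples, blue for Nx and orange for IH, squares for males and circles for females, and black bars are the means of 3 samples. All LPS samples lie above all vehicle samples for each gene, and the lowest male Nx LPS and male IH LPS samples sit far below the other LPS samples for Birc3, at 12.05 and 6.51 CPM.

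The first comparison asked how LPS changed these genes in normoxic pups, and all 3 were higher with LPS. Birc3, the cIAP2 gene, rose most, 131-fold, from a mean of 0.839 CPM to a mean of 114 CPM. Nfkbia, the feedback inhibitor, rose 6.14-fold, and Cd83, the membrane protein, 3.33-fold. With LPS, Nfkbia had 380, 130 and 336 CPM in male Nx and 431, 298 and 337 CPM in female Nx. Birc3 had 114, 12.05 and 161 CPM in male Nx LPS and 145, 137 and 117 CPM in female Nx LPS. Cd83 had 700, 432 and 1482 CPM in male Nx LPS and 1309, 1538 and 1029 CPM in female Nx LPS. For each gene all 6 Nx LPS samples lay above all 6 Nx vehicle samples, while 4.5% of the genes tested were higher in this way.

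In edgeR's quasi-likelihood test, with the sexes weighted equally and p-values adjusted over all genes (FDR), the log2 fold change of Nfkbia in Nx was 2.62 (SE 0.35, 6.14-fold, FDR 2.96e-05). That of Birc3 was 7.03 (SE 0.68, 131-fold, FDR 1.39e-06), with a 95% interval from 5.61 to 8.46. That of Cd83 was 1.73 (SE 0.23, 3.33-fold, FDR 3.5e-05). All 3 members were called higher, where 9.26% of all genes were called higher and 16.1% were called in either direction. Without the 2 low LPS samples the log2 fold changes were 2.79, 7.30 and 1.90, and the SE of Birc3 fell from 0.68 to 0.32. Of the 10 other NF-κB targets, which the study had listed from these same samples, all 10 were called higher with LPS in Nx, with a median log2 fold change of 4.96 against -0.04 over all genes. Csf3, Cxcl1, Ptgs2, Sele and Cxcl9 were at most 1.11 CPM with vehicle and passed the filter on low counts only through LPS samples. Their calls therefore restate that filter in part, and the count and median are descriptions only.

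The same question in IH pups gave the same direction. Nfkbia had 400, 333 and 136 CPM in male IH LPS and 249, 253 and 458 CPM in female IH LPS. Birc3 had 88.7, 61.2 and 6.51 CPM in male IH LPS and 42.6, 30.01 and 95.3 CPM in female IH LPS. Cd83 had 815, 690 and 421 CPM in male IH LPS and 624, 679 and 1160 CPM in female IH LPS. Each gene was again higher in all 6 LPS samples than in all 6 vehicle samples, which held for 2.61% of all genes. The separation was narrow for Cd83, whose lowest IH LPS value of 421 CPM was next to the highest IH vehicle value of 381 CPM.

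The log2 fold change of Nfkbia with LPS in IH was 2.61 (SE 0.35, 6.12-fold, FDR 6.09e-05 by edgeR). That of Birc3 was 6.09 (SE 0.68, 68.0-fold, FDR 1.1e-05), and that of Cd83 was 1.11 (SE 0.23, 2.16-fold, FDR 0.00421). All 3 were called higher, against 5.05% of all genes called higher and 7.16% called in either direction. The values without the 2 low samples were 2.78, 6.35 and 1.22. Of the 10 other targets 9 were called higher in IH, with a median of 4.56, and Il1a, the interleukin 1 alpha gene, had an FDR of 0.0791. The targets that passed the filter only through LPS samples carry the same limit here as in Nx.

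Within single sexes, with 3 samples against 3, Nfkbia and Birc3 were called higher with LPS in all 4 sex and oxygen groups. The log2 fold change of Nfkbia was 2.05 (SE 0.48) in male Nx, 2.15 (SE 0.48) in male IH, 3.19 (SE 0.50) in female Nx and 3.08 (SE 0.50) in female IH. That of Birc3 was 6.95 (SE 0.97), 5.84 (SE 0.94), 7.12 (SE 0.96) and 6.34 (SE 0.98) in the same order. Cd83 was called in male Nx (1.42, SE 0.33), female Nx (2.05, SE 0.33) and female IH (1.34, SE 0.33) and not in male IH (0.88, SE 0.32, edgeR FDR 0.326). The share of all genes called higher was 3.16% in male Nx, 0.832% in male IH, 4.49% in female Nx and 2.5% in female IH.

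Several of these calls were lost when 1 sample was left out, mostly at a similar fold change. In males the call for Nfkbia was lost in Nx without male Nx vehicle 2, male Nx vehicle 3, male Nx LPS 1 or male Nx LPS 3 (edgeR FDR from 0.0702 to 0.098), at log2 fold changes of 1.73 to 2.00. In IH it was lost without male IH vehicle 2, male IH vehicle 3, male IH LPS 1 or male IH LPS 2 (FDR from 0.0995 to 0.238), at log2 fold changes of 1.84 to 2.03. The call for Cd83 was lost in male Nx without male Nx vehicle 1, male Nx vehicle 3 or male Nx LPS 3 (FDR from 0.064 to 0.2), the last of which moved its log2 fold change from 1.42 to 0.79. In female IH it was lost without any 1 of the 3 vehicle samples, at log2 fold changes of 1.28 to 1.397, or without female IH LPS 3, at 1.01 (FDR from 0.0709 to 0.169). Without both low LPS samples the log2 fold changes in males were 2.39 (Nx) and 2.49 (IH) for Nfkbia and 7.47 and 6.36 for Birc3, all called. Cd83 was then 1.74 in male Nx and was also called in male IH, at a log2 fold change of 1.11 (FDR 0.0222).

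**Figure D2:**
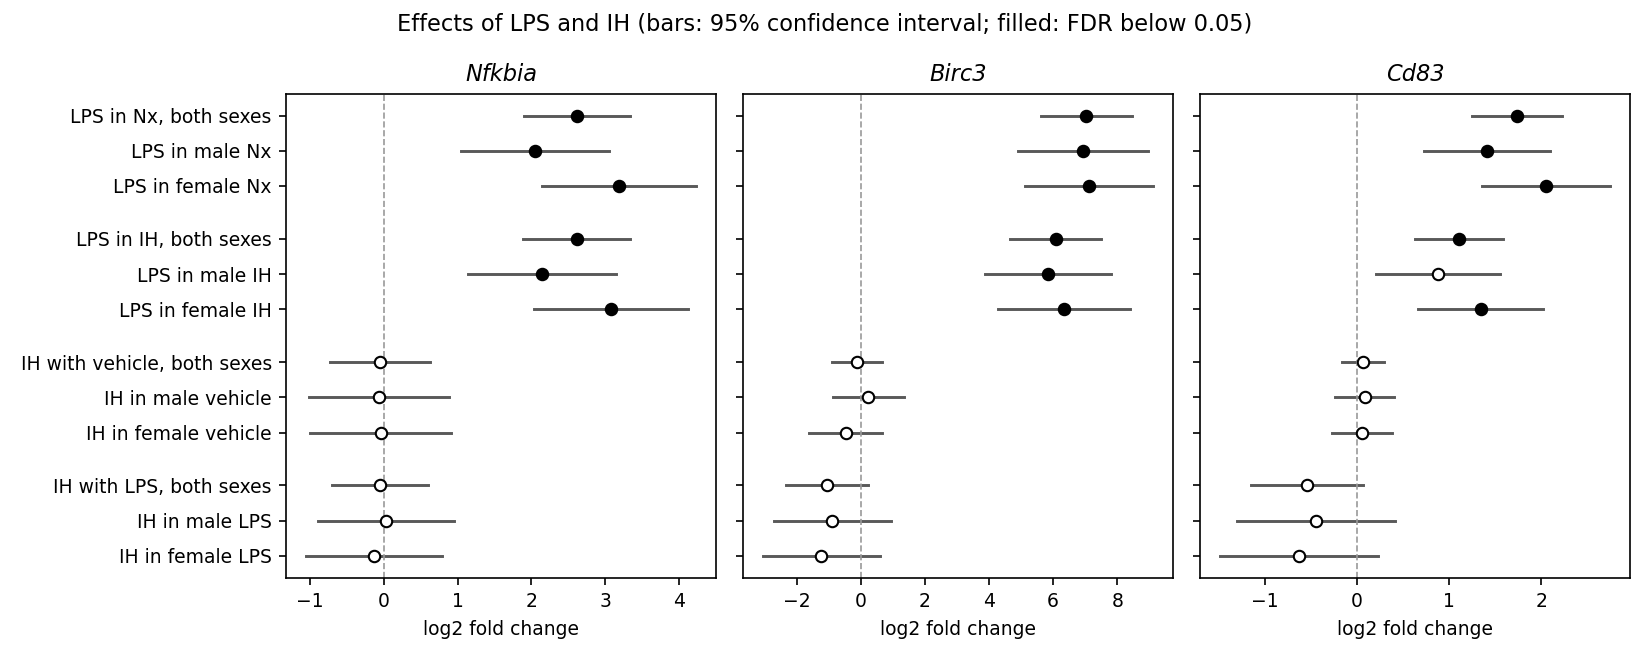
Log2 fold changes of Nfkbia, Birc3 and Cd83 (1 panel per gene, each with its own horizontal scale) for LPS against vehicle and IH against Nx, for both sexes weighted equally and for each sex. Points are edgeR estimates, bars are 95% confidence intervals, and filled points have an FDR below 0.05. The LPS effects lie to the right of 0 in every group, all filled except Cd83 in male IH, and the intervals of every IH effect include 0.

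The second question was whether IH changed the genes without LPS, and no difference was detected. The log2 fold change of IH against Nx with vehicle was -0.05 for Nfkbia (95% interval -0.73 to 0.62). It was -0.12 for Birc3 (-0.91 to 0.67) and 0.07 for Cd83 (-0.16 to 0.30), the latter from 0.0055 (without male Nx vehicle 3) to 0.13 (without male Nx vehicle 2) with 1 sample left out. The interval for Cd83 was the narrowest of the 3 and that for Birc3 the widest. Each gene had an FDR of 1 by edgeR's quasi-likelihood test, and 0% of all genes were called. Of the 12860 genes tested, 136 had an unadjusted edgeR p below 0.05, which is fewer than chance alone gives at that threshold. DESeq2 and edgeR's likelihood ratio test also called 0 genes.

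The third question was whether IH changed their level after LPS. The 6 Nx LPS samples had a mean of 319 ± 103 CPM of Nfkbia (SD) and the 6 IH LPS samples a mean of 305 ± 116 CPM. For Birc3 the means were 114 ± 53.1 CPM after Nx and 54.1 ± 34.4 CPM after IH. For Cd83 they were 1082 ± 445 CPM after Nx and 732 ± 246 CPM after IH. The 2 oxygen groups overlapped for each gene, and 1 of the 6 IH LPS samples lay below all Nx LPS samples for Birc3 and for Cd83, which is male IH LPS 3. The values of Nx LPS that enter here are the same as in the LPS effect in Nx above, so the comparisons are not independent.

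The log2 fold change of IH against Nx with LPS was -0.05 for Nfkbia (95% interval -0.71 to 0.60). For Birc3 it was -1.06 (SE 0.59, interval -2.35 to 0.23), with an unadjusted p of 0.0987 by edgeR. For Cd83 it was -0.54 (SE 0.28, interval -1.15 to 0.07), with an unadjusted p of 0.0773 by edgeR. All 3 had an FDR of 1, and 0% of all genes were called with edgeR's quasi-likelihood test, its likelihood ratio test or DESeq2. Of the 12860 genes tested, 223 had an unadjusted edgeR p below 0.05, again fewer than chance alone gives. Without the 2 low LPS samples the estimates were nearly the same, -0.05, -1.06 and -0.59, and the SE of Birc3 fell from 0.59 to 0.28. Its unadjusted edgeR p was then 0.00289 and that of Cd83 0.0283, both still with an FDR of 1. Both genes are on a list that the study gives as lower with IH in the female LPS samples, which enter this effect. Leaving out 1 sample at a time, the value of Cd83 ran from -0.70 (without female IH LPS 3) to -0.23 (without male Nx LPS 3) and that of Birc3 from -1.36 (without female IH LPS 3) to -0.76 (without male Nx LPS 3).

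In females alone Birc3 had 145, 137 and 117 CPM with Nx LPS, all above the 42.6, 30.01 and 95.3 CPM with IH LPS, a separation that 5.28% of all genes showed in the same direction. The log2 fold change was -1.23 (SE 0.84, edgeR FDR 1), and -1.85 without female IH LPS 3. Cd83 had a log2 fold change of -0.63 (SE 0.40, FDR 1) and Nfkbia of -0.13 (SE 0.43, FDR 1) in females, and that of Cd83 was -0.97 without female IH LPS 3. Birc3 and Cd83 are among the NF-κB targets that the study listed as lower with IH in LPS females from these same samples, so their direction there is not independent evidence. The sex-averaged IH effect with LPS, the interaction and the order of group means include these female samples, so this limit holds there too. The study called both genes at an FDR below 0.05 over its own set of NF-κB targets, while the FDR here covers all genes tested. In males the values were -0.89 for Birc3 (SE 0.84), -0.45 for Cd83 (SE 0.39) and 0.03 for Nfkbia (SE 0.43), each with an FDR of 1. Without male Nx LPS 3 the value in males was -0.30 for Birc3 and 0.16 for Cd83, and without male IH LPS 1 that of Birc3 was -1.48. Without male Nx LPS 2 that of Cd83 was -0.77. With both low samples left out of the fit, the estimates were -0.89 for Birc3 and -0.54 for Cd83 in males, with unadjusted edgeR p-values of 0.0614 and 0.159. In females, whose samples were all kept, the estimates were -1.23 and -0.63 in that fit, with unadjusted edgeR p-values of 0.00505 and 0.055, and the FDR was 1 for each. The difference between the sexes in the IH effect with LPS was 0.34 (SE 1.17) for Birc3 and 0.18 (SE 0.56) for Cd83, males minus females, with an FDR of 1 for both.

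Tested as an interaction, the LPS effect did not differ detectably between IH and Nx. The difference on the log2 scale, IH minus Nx, was -0.01 for Nfkbia (95% interval -0.98 to 0.96). It was -0.95 for Birc3 (-3.19 to 1.29) and -0.62 for Cd83 (-1.30 to 0.05, unadjusted edgeR p 0.0664). The FDR was 1 for each and 0% of all genes were called. An unadjusted edgeR p below 0.05 was found for 182 of 12860 genes, again fewer than chance alone gives. Without both low LPS samples the differences were -0.01, -0.94 (unadjusted edgeR p 0.0933) and -0.67 (unadjusted edgeR p 0.0184), each with an FDR of 1. Leaving out male Nx LPS 3 alone gave -0.31 for Cd83, the smallest difference of the 24 such fits. For comparison, the 10 other NF-κB targets were all lower with IH in the LPS samples, with none called and a median log2 fold change of -0.88 against 0.01 over all genes. That list was chosen for this direction in the female samples. In males alone 8 of the 10 were lower and 2 higher, with a median log2 fold change of -0.50. Of the genes of other cells, Cd7 had 0.933 to 15.2 CPM in Nx LPS and 2.86 to 27.4 CPM in IH LPS, which overlapped (log2 fold change 2.36, edgeR FDR 1). Mcpt1l1 was at 6.18 to 12.7 CPM in male Nx LPS and at 23.9 to 50.2 CPM in male IH LPS (log2 fold change 1.63, edgeR FDR 1), and its log2 fold change in females was -0.82 (edgeR FDR 1). The study listed Cd7 and Mcpt1l1 as higher with IH in LPS males from these same samples, so their values there are descriptions only. The part of such cells in the values of the 3 genes was not tested.

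Ordered by group mean, the 4 vehicle groups came below the 4 LPS groups for every member. For Nfkbia the LPS order was male Nx (282 CPM), male IH (290 CPM), female IH (320 CPM) and female Nx (355 CPM), and all neighbours overlapped. For Birc3 it was male IH (52.1 CPM), female IH (56.0 CPM), male Nx (95.7 CPM) and female Nx (133 CPM). For Cd83 it was male IH (642 CPM), female IH (821 CPM), male Nx (871 CPM) and female Nx (1292 CPM). Birc3 and Cd83 had both IH groups below both Nx groups, but neighbours in the order overlapped for both genes. The order within each oxygen group depended on the 2 low male samples for Birc3, whose means without them were 56.0 CPM in female IH, 74.9 CPM in male IH, 133 CPM in female Nx and 137 CPM in male Nx. For Nfkbia the male groups were then the highest, at 358 CPM in Nx and 367 CPM in IH, and for Cd83 the order stayed the same. In no gene did neighbouring LPS groups differ by more than the sum of their SDs.

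Males and females did not differ detectably in any of the 3 genes once p-values were adjusted. With vehicle, Nfkbia was higher in males by 0.81 on the log2 scale (SE 0.31), at an unadjusted edgeR p of 0.023 and an FDR of 0.377. Leaving out male IH vehicle 1, the highest of the vehicle samples, gave a difference of 0.45, and leaving out male Nx vehicle 3 gave 0.97. The vehicle difference was 0.06 (SE 0.36) for Birc3 and 0.10 (SE 0.10) for Cd83, the latter from 0.056 (without female Nx vehicle 2) to 0.16 (without male Nx vehicle 3) with 1 sample left out. With LPS, the differences of males minus females were -0.23, -0.28 and -0.46 for Nfkbia, Birc3 and Cd83, with FDRs between 0.607 and 0.886 by edgeR. Without the 2 low male samples those of Nfkbia and Birc3 turned to 0.11 and 0.24, and that of Cd83 was -0.18. Leaving out 1 sample at a time, the value of Nfkbia ran from -0.37 (without male Nx LPS 1) to -0.059 (without male Nx LPS 2) and that of Cd83 from -0.76 (without male Nx LPS 3) to -0.29 (without female IH LPS 3). Few genes were called for sex at all, 0.07% with vehicle and 0.0467% with LPS. The difference of males minus females in the LPS effect was -1.14 for Nfkbia in Nx (SE 0.66, unadjusted edgeR p 0.0988, FDR 1). It was -0.66 without male Nx vehicle 1, -1.46 without male Nx vehicle 3 and -0.79 without the 2 low LPS samples.

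The 3 genes were also compared with each other across the 12 LPS samples, as deviations from their group means. The deviations of log2 CPM of Nfkbia and Birc3 had a Pearson r of 0.96 (exact permutation within groups, two-sided p = 0.0108, adjusted p = 0.0324 over 6 relations) and a Spearman rho of 0.97 (adjusted exact p = 0.0393). Those of Birc3 and Cd83 had an r of 0.85 (adjusted exact permutation p = 0.0232) and a rho of 0.90 (adjusted exact permutation p = 0.0232). Those of Nfkbia and Cd83 had an r of 0.77 (adjusted exact permutation p = 0.0802) and a rho of 0.83 (adjusted exact permutation p = 0.0432). The 2 samples farthest from the median were male Nx LPS 2 and male IH LPS 3 in each case. With these 2 points dropped, r was 0.88, 0.76 and 0.56, with adjusted exact permutation p-values of 0.292, 0.208 and 0.514, so the relations rest in part on those samples. The group means that were subtracted still included the 2 samples, so these r values are not free of them. In the 12 vehicle samples r was 0.18 for Nfkbia and Birc3, 0.57 for Nfkbia and Cd83 and 0.19 for Birc3 and Cd83, with adjusted exact permutation p-values of 0.255 to 0.581.

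**Figure D3:**
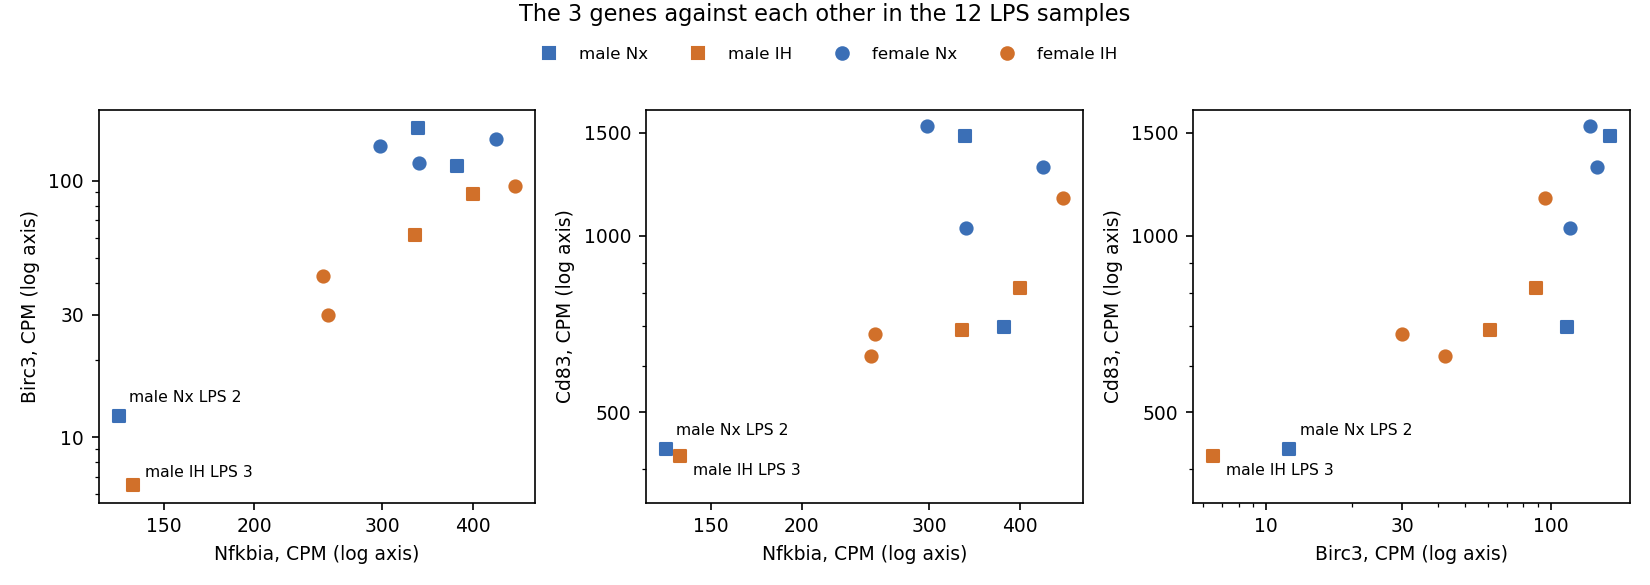
CPM of the 3 genes against each other (log axes) in the 12 LPS samples, 1 point per sample, blue for Nx and orange for IH, squares for males and circles for females. The labelled samples, male Nx LPS 2 and male IH LPS 3, are the lowest of all 3 genes. In the left panel the female IH samples with 42.6 and 30.01 CPM of Birc3 lie below the female Nx sample nearest to them in Nfkbia level, which had 298 CPM of Nfkbia and 137 CPM of Birc3.

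Among the other genes with a known name, those whose deviations in the LPS samples were most like Nfkbia were Birc3 (r = 0.96), Icam1 (0.96), Cxcl10 (0.95), Irf1 (0.92) and Il6 (0.90). For Birc3 they were Cxcl10 (0.99), Icam1 (0.98), Nfkbia (0.96), Irf1 (0.93) and Il6 (0.92). Among all 12859 other genes tested, named or not, 188 had an r above 0.9 with Birc3, 75 with Nfkbia and 22 with Cd83. In likeness to Birc3, Cxcl10 ranked 2, Nfkbia 29 and Cd83 442, and in likeness to Nfkbia, Birc3 ranked 6 and Cd83 546. For Cd83 they were Il1a (0.89), Icam1 (0.87), Birc3 (0.85), Irf1 and Cxcl10. These values are over 12 samples that share the 2 low ones and are descriptions only. Icam1 codes for an adhesion molecule and Irf1 for a transcription factor of the interferon response. The genes that could be named were those for which the study gives an identifier.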

How the data were processed

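RNA was sequenced from CD11b/c+ brain cells of 24 rats (TruSeq stranded mRNA libraries, Illumina HiSeq). The authors aligned the reads to rn6 with TopHat2 (version 2.1 in the labels) and counted them per Ensembl gene with HTSeq in reverse stranded mode. They deposited 1 file of raw counts per sample, with rows for reads not assigned to a gene, which were left out of library sizes. HTSeq set aside reads with more than 1 alignment (11.7% to 23.4% of the reported total), so reads that Birc3 shares with its paralog Birc2 may be missing. From the counts, genes with over 1 CPM in 3 or more of the 24 samples entered the tests, TMM factors were computed and quasi-likelihood tests fitted in edgeR 4.0.16 (R 4.3.3), with Benjamini-Hochberg adjustment over 12860 genes. LPS effects and interactions were fitted to all 24 samples with 8 group means, and IH and sex effects to the 12 vehicle or the 12 LPS samples. Log2 CPM used a prior count of 2. Fold changes, p-values and intervals are two-sided, with 95% confidence. The p-values of edgeR and DESeq2 set a difference against the spread between samples of the same group, estimated over all groups of a fit. Pups were exposed together with their dams and no litter is named for the samples, so samples of a group may not be independent.

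The members and lists were chosen with earlier results of these data known. Genes named are the 3 members in every comparison and the 5 named genes most like each over the LPS samples. The 10 other NF-κB targets are the rest of a list that the study gives with identifiers, and Cd7 and Mcpt1l1 come from the same table. Its other genes entered only the search for the genes most like each member. Leaving out the 2 low LPS samples and the ratios of genes were chosen after values were seen. Pathway and cell type lists could not be matched, because no table used here pairs Ensembl identifiers with symbols. The identifier of Nfkbia came with the list of members.

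The labels give the vehicle as saline and the methods as HBSS, and the labels write the LPS dose per mL. Replicate numbers are shared by the groups, but same-numbered samples did not deviate together in every pair (9 of 18 pairs with LPS had a correlation over 0.1, against 8 of 36 pairs with different numbers).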

Additional observations from a re-analysis of the deposited data

Results flagged for a closer look

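For each member, the 6 samples of each oxygen and injection group, sexes together, were examined for a highest or lowest sample whose gap to its neighbour took up an unusually large share of the group's range on the log2 scale. Of 12 such groups, 3 had one, where chance alone gives about 1 in 20, but the 12 share samples and are not independent, and male Nx LPS 2 accounts for 2 of the 3. For Nfkbia in Nx LPS, male Nx LPS 2 (130 CPM) was set apart from the other 5 samples by 0.692 of the range. For Birc3 in the same group, male Nx LPS 2 (12.05 CPM) was set apart by 0.866 of the range. For Nfkbia in IH vehicle, male IH vehicle 1 (116 CPM) was set apart above the others by 0.721 of the range. The part of any cause in these values was not tested.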

How the results depend on the processing

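The alternatives were RLE size factors, no filter, the likelihood ratio test, DESeq2, a fit to other samples, another prior count (0.5), leaving out samples and a replicate block. Of 1410 alternative values, 1322 kept their direction and side of the threshold (counts stayed within 1.5 times). The LPS effects of all 3 genes in Nx and in IH, sexes together, did so under every alternative. Same-numbered samples had a mean correlation of deviations of 0.0873 with LPS and 0.0381 with vehicle, against -0.0446 and -0.0198 for samples with different numbers. Not every same-numbered pair was over 0.1, and the main fits did not pair samples by number. That does not exclude a batch shared by same-numbered samples, which the replicate block allows for. The replicate block gave 2029 and 907 genes called for LPS in Nx and in IH and 0 for the IH effects, and turned the sign of 2 Nfkbia values near 0, the IH effect with LPS (0.0026) and its interaction (0.061). Without the 2 low LPS samples 1602 genes were called for LPS in IH in place of 921, and the difference of the sexes in the LPS effect on Birc3 changed sign in Nx (0.35), as did the sex difference with LPS of Nfkbia (0.11) and Birc3 (0.24). Fitted to the 12 samples of the oxygen group only, with fewer samples to estimate the spread, LPS was no longer called for Cd83 in male Nx (edgeR FDR 0.0577) and Nfkbia in male IH (edgeR FDR 0.0696). With the points of the 2 farthest samples dropped, the correlation was 0.88 for Nfkbia and Birc3 and 0.76 for Birc3 and Cd83 with LPS. It was -0.072 for Birc3 and Cd83 with vehicle. The deviations were still taken from group means that included the dropped samples. Leaving out 1 sample at a time, values near 0 changed sign. The IH effect with vehicle ran from -0.34 to 0.063 for Birc3 and from -0.41 to 0.18 for Nfkbia, the IH effect with LPS of Nfkbia from -0.22 to 0.12, and its interaction from -0.24 to 0.36. In single sexes the IH effect with vehicle ran from -0.78 to 0.40 (Nfkbia), -0.041 to 0.57 (Birc3) and -0.044 to 0.17 (Cd83) in males and from -0.23 to 0.073 (Nfkbia) and -0.033 to 0.15 (Cd83) in females. The IH effect with LPS ran from -0.32 to 0.37 (Nfkbia) and -0.77 to 0.16 (Cd83) in males and from -0.48 to 0.035 (Nfkbia) in females, and its difference between the sexes from -0.19 to 0.52 (Nfkbia), -0.25 to 0.98 (Birc3) and -0.14 to 0.79 (Cd83). For Birc3 the difference between the sexes ran from -0.10 to 0.28 with vehicle, from -0.58 to 0.024 with LPS, and from -0.78 to 0.35 for the LPS effect in Nx. The count of genes called ran from 602 (without male IH LPS 1) to 1375 (without male IH LPS 3) for LPS in IH and from 0 to 2 for IH with vehicle, where male Nx vehicle 2 left out gave 2 genes. Beyond what is stated, the cause of these changes was not tested.

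The number of samples limits the IH comparisons, and vehicle counts of 2 to 10 reads limit every ratio that involves Birc3 without LPS.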

Other observations

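After the values had been seen, the 3 genes were also set against each other within each LPS sample. LPS raised Birc3 more than Nfkbia and Nfkbia more than Cd83, so a weaker response to LPS also moves these ratios. It moves Birc3 to Nfkbia and Birc3 to Cd83 down, and Cd83 to Nfkbia up. The ratios restate in part the levels given above and are descriptions only, and the part of the response strength in them was not tested. The log2 ratio of Birc3 to Nfkbia was -1.74 ± 0.87 in Nx LPS and -2.81 ± 0.83 in IH LPS (SD, n = 6 each), a difference of -1.07. It was lowest in the 2 low samples, at -3.43 in male Nx LPS 2 and -4.39 in male IH LPS 3. With 1 sample left out, the difference ran from -1.41 (without male Nx LPS 2) to -0.73 (without male IH LPS 3), and it was -1.07 without both. For Cd83 to Nfkbia the difference was -0.42, from -0.60 (without male Nx LPS 1) to -0.28 (without male Nx LPS 3). For Birc3 to Cd83 it was -0.65, from -1.03 (without male Nx LPS 2) to -0.21 (without male IH LPS 3).

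With vehicle, the named gene whose deviations were most like those of Nfkbia was Cxcl1, a chemokine that attracts neutrophils (r = 0.88 over 12 samples, rank 31 among 12859 genes), and the 2 high Nfkbia samples of the males are among the 12. Cxcl1 had 0 to 7 reads in these samples, with 0 reads in 4 of them, so the correlation rests on counts near the detection limit.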
